A study of Mus musculus with 18 samples.

Results

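The genes described here encode fibronectin (Fn1), osteopontin (Spp1), 7 matricellular or matrix-binding proteins (Thbs1, Thbs2, Tnc, Sparc, Tgfbi, Postn and Srpx2) and the collagen cross-linking enzyme lysyl oxidase (Lox). All 10 symbols were found, once each, among the 26143 genes of a table from 18 mouse RNA-seq libraries. They were chosen by name with levels in these same libraries already known, so their levels and changes are given as a description. Where calls of members by limma are counted, they stand beside the share of all genes called and are no independent evidence. Spp1 was lower in E20/p53 than in E20, at 2517 ± 246.1 CPM in E20/p53 and 6004 ± 358.2 CPM in E20, and Tnc was higher, at 696.6 ± 250.3 CPM in E20/p53 and 156.5 ± 39.3 CPM in E20 (mean ± SD, n = 6 each).

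Libraries were labelled as squamous epithelium and fell into 4 groups. E20/p53 (n = 6, tongue) carried LSL-PIK3CAH1047R, LSL-p53+/R172H and K14-Cre. E20 (n = 6, tongue) carried LSL-PIK3CAH1047R. The p53 group (n = 3, tongue) was heterozygous for LSL-p53+/R172H, and WT (n = 3) was wild type esophagus. LSL is a stop element between loxP sites that silences an allele until Cre recombinase removes it, and the K14 promoter is active in basal keratinocytes. The labels name K14-Cre for E20/p53 alone, and the series title speaks of tumours started with the carcinogen 4NQO without saying which libraries came from treated animals or from tumours. Strain and age were not given in the labels used here. In each comparison with WT, genotype and organ cannot be told apart.

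Libraries held 14592044 to 18176060 reads, and CPM below means reads as a share of the scaled library total in the deposited values, per 1000000. The libraries formed 6 sets of 3: E20/p53 replicates 1 to 3, E20/p53 replicates 4 to 6, E20 replicates split likewise, the p53 libraries and the WT libraries. Pearson's r of log2 values across tested genes, which are not independent replicates, was 0.991 to 0.994 inside a set. It was 0.859 to 0.944 between the sets of 1 group and 0.809 to 0.947 between groups. The labels do not say whether replicates are separate animals, so p-values here reflect only how far these libraries differ, a spread that may be technical. The fit used 1 spread per gene, shared by all groups. A gap between the sets of E20 or of E20/p53 thus widens the SE in every comparison, also in p53 against WT. Xist, which silences 1 X chromosome in females, stood at 815.5 to 1350 CPM in E20 libraries and at 0.893 CPM or less in all others. Eif2s3y, a gene of the Y chromosome, stood at 66.2 to 108.7 CPM in E20/p53 and 90.2 to 99.6 CPM in p53, with 0 reads in E20 and WT. Sex as read from these genes thus differed between E20 and both E20/p53 and p53, and its part in the results was not tested. In WT, Xist stood at 0.621 to 0.722 CPM and Eif2s3y had 0 reads, so sex could not be read from them there.

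The epithelial label was checked against 10 keratinocyte markers (Krt5, Krt14, Krt15, Trp63, Cdh1, Epcam, Dsg3, Dsp, Krt8 and Krt18). Their summed level was 1059 to 1068 CPM in E20/p53 1 to 3, but 3.41 to 4.17 CPM in E20/p53 4 to 6. It was 87.3 to 105.1 CPM in E20 1 to 3, 3.32 to 3.60 CPM in E20 4 to 6, 4.03 to 5.42 CPM in p53 and 386.3 to 397.5 CPM in WT. The sums were made of different markers. In E20/p53 1 to 3 the basal keratin Krt14 (483.0 CPM) and desmoplakin (Dsp, 375.3 CPM) led, with Krt5 at 126.5 CPM. In WT the simple-epithelial keratin Krt18 (227.5 CPM) and Dsp (94.9 CPM) led, while Krt14 stood at 13.4 CPM and Krt5 at 0.0784 CPM. Epcam and Krt18 had 0 reads in E20/p53 4 to 6 and in E20 4 to 6. The summed level of 8 fibroblast markers (Col1a1, Col1a2, Col3a1, Dcn, Lum, Pdgfra, Thy1 and Fbln1, of which the 3 collagens are also substrates of Lox) ran the other way in the E20/p53 sets, with 187.1 to 189.5 CPM in E20/p53 1 to 3 beside 19806 to 21794 CPM in E20/p53 4 to 6. It was 16978 to 19390 CPM in E20, 8568 to 9336 CPM in p53 and 1451 to 1572 CPM in WT. The contrast between the E20/p53 sets rests on the collagens. Over the 6 E20/p53 libraries Col1a1 stood at 4641 ± 5074 CPM, Col1a2 at 3696 ± 4054 CPM and Col3a1 at 1880 ± 2032 CPM. Fbln1 (87.0 ± 13.1 CPM), Pdgfra (58.0 ± 8.68 CPM) and Dcn (11.3 ± 4.53 CPM) varied far less there. Expression of the keratinocyte markers was thus near 0 in 3 of the 6 sets, against the label. Over all sets, 5 endothelial markers (Pecam1, Cdh5, Kdr, Tek and Emcn) summed to 1.05 to 4.73 CPM. The sum of 6 leukocyte markers (Ptprc, Cd68, Adgre1, Cd3e, Itgam and Lyz2) was 3.09 to 22.9 CPM, and Adgre1 and Cd3e had 0 reads throughout.

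Matricellular proteins are secreted into the extracellular matrix, where they act mainly as signals rather than as scaffold. They bind integrins, growth factors and matrix fibres, and many are low in resting adult tissue and induced in wounds, development and tumour stroma. Fibronectin is a structural glycoprotein that cells assemble into fibrils, several matricellular proteins bind to it, and lysyl oxidase cross-links collagen and elastin. In squamous carcinomas these proteins are made by cancer-associated fibroblasts and, for some of them, by the tumour cells.

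Promoter sequences are shown for the 3 members whose levels varied most between tongue sets (Postn, Srpx2 and Thbs2) and for Spp1 and Tnc, which stood on opposite sides in E20/p53 against E20. Each is the 250 bases before the RefSeq start on GRCm38.p6, 5′ to 3′ on the gene's strand. They are Postn at chr3:54360857-54361106 (+), Srpx2 at chrX:133908175-133908424 (+), Thbs2 at chr17:14694263-14694512 (-), Spp1 at chr5:104434861-104435110 (+) and Tnc at chr4:64047016-64047265 (-). Each was searched on both strands, and capitals mark the matches. The AP-1 motif, bound by Jun and Fos proteins, was searched as TGANTCA. The TATA box, which places the start of transcription in some promoters, was searched as TATAAA. The GC box, bound by Sp1 and its relatives, was searched as GGGCGG. The motif of the TEAD factors, through which YAP acts, was searched as GGAATG and had no match in these promoters.
Postn: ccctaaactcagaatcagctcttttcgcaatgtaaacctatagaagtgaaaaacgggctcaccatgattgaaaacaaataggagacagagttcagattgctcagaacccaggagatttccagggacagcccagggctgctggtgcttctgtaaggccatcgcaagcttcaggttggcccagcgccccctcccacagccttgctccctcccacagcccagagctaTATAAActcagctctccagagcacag
Srpx2: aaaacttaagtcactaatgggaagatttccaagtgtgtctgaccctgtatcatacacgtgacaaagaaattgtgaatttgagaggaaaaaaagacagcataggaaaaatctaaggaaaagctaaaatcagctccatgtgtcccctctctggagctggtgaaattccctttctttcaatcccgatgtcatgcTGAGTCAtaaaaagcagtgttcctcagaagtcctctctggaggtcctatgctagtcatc
Thbs2: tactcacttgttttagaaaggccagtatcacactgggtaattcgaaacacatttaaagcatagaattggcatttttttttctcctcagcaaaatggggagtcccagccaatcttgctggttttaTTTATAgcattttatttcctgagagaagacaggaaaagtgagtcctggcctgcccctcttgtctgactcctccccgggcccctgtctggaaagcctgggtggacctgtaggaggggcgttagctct
Spp1: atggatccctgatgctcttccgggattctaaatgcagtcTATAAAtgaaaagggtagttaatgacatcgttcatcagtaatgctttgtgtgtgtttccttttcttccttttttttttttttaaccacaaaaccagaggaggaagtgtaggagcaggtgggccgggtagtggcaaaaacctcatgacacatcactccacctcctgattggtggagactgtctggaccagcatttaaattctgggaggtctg
Tnc: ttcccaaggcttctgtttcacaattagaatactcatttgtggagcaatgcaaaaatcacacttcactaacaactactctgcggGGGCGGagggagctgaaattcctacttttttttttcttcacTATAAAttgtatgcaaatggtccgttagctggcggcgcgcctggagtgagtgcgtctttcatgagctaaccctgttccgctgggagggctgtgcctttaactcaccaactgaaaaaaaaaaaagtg

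The Postn promoter held a TATA box 26 bases before the start, and the Srpx2 promoter held the AP-1 match TGAGTCA 59 bases before it. In Thbs2 the TATA letters lay on the opposite strand, 126 bases before the start. In Tnc a GC box stood 167 bases and a TATA match 126 bases before the start, and in Spp1 a TATA match stood 211 bases before it. In the same 250 bases before the start of 32851 mouse promoters in the RefSeq table, 6.75% held the AP-1 motif, 12.4% the TATA box, 32.7% the GC box and 12.6% the TEAD motif. Postn, Spp1 and Tnc have 2 RefSeq starts each, of which 1 is shown. The window of the other start held none of the motifs in Postn and Spp1, and in Tnc it overlapped the one shown, with the same TATA match 205 bases and the same GC box 246 bases before that start. A match describes letters in these windows and says nothing of binding. Of the 10 members, 7 had an entry in the promoter table and Fn1, Thbs1 and Lox had none.

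Fibronectin was highest in WT, with E20/p53 4 to 6 next. Fn1 (chr1:71585520-71653200, minus strand, mm10) had 2862, 2884 and 2780 CPM in E20/p53 1 to 3, with 9078, 9908 and 8675 CPM in E20/p53 4 to 6. It had 5057, 4868 and 5667 CPM in E20 1 to 3, and 7460, 7550 and 6984 CPM in E20 4 to 6. The p53 libraries had 3963, 3592 and 4110 CPM and the WT libraries 19013, 21657 and 19079 CPM. No set overlapped its neighbour in the order of levels, and the E20 sets lay between the E20/p53 sets, which differed 3.24-fold. By reads, Fn1 held rank 1 of all genes in each WT library and ranks 1 to 7 in the others.

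Osteopontin is a secreted phosphoprotein that binds CD44 and integrins through an RGD sequence. Spp1 (chr5:104435118-104441050, plus strand) had 2192, 2446 and 2300.4 CPM in E20/p53 1 to 3, with 2685, 2646 and 2833 CPM in E20/p53 4 to 6. E20 libraries 1 to 3 had 6353, 6431 and 6129.5 CPM, and E20 libraries 4 to 6 had 5881, 5669 and 5563 CPM. The p53 libraries had 4286, 4852 and 4379.9 CPM and the WT libraries 3019.7, 3113 and 3045 CPM. Both E20 sets lay above every other library and both E20/p53 sets below every other library. Of the 10 members, Spp1 varied least among the 6 sets, with 2.73-fold between the highest and the lowest.

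**Figure D1:**
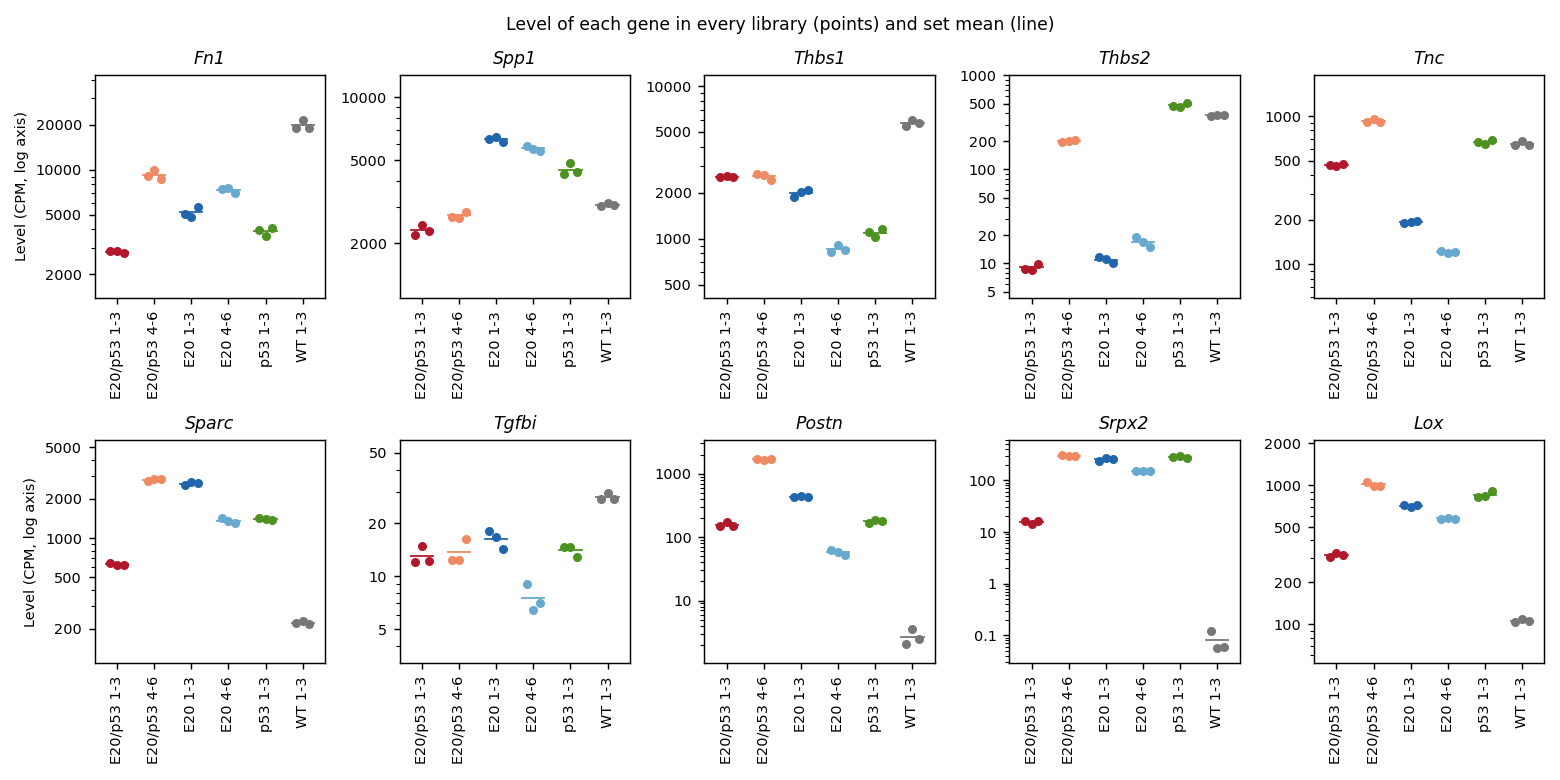
CPM of the 10 members in each of the 18 libraries, on log axes, by set of 3 libraries; each point is 1 library. Spp1 stays between 2192 and 6431 CPM, while Postn runs from 2.05 CPM in a WT library to 1708 CPM in an E20/p53 library of replicates 4 to 6.

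Thrombospondins 1 and 2 are closely related trimeric glycoproteins that bind CD47 and CD36 and restrain angiogenesis, and thrombospondin 1 also activates latent TGF-beta. Thbs1 (chr2:118111876-118127133, plus strand) had 2548, 2566 and 2525 CPM in E20/p53 1 to 3, with 2659, 2607 and 2426 CPM in E20/p53 4 to 6. E20 had 1875, 2024 and 2070.1 CPM in libraries 1 to 3 and 815.9, 903.7 and 837.2 CPM in libraries 4 to 6, p53 had 1104, 1029 and 1155 CPM, and WT had 5505, 5950.4 and 5694 CPM. The E20/p53 sets overlapped each other and lay above every E20 and p53 library and below every WT library. Thbs2 (chr17:14665500-14694235, minus strand) had another order. It had 8.76, 8.57 and 9.89 CPM in E20/p53 1 to 3, with 195.03, 199.8 and 204.3 CPM in E20/p53 4 to 6. E20 libraries 1 to 3 had 11.6, 11.2 and 10.1 CPM and E20 libraries 4 to 6 19.2, 17.0 and 15.1 CPM. The p53 libraries had 476.7, 465.7 and 510.9 CPM and the WT libraries 369.2, 380.4 and 374.98 CPM. Thbs2 was thus low in both E20 sets and in 1 E20/p53 set, with 53-fold between the p53 set and E20/p53 1 to 3.

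Tenascin C is a large multi-armed glycoprotein of wound and tumour stroma that modulates adhesion to fibronectin. Tnc (chr4:63959785-64047015, minus strand) had 468.4, 461.6 and 475.7 CPM in E20/p53 1 to 3, with 904.9, 952.98 and 915.7 CPM in E20/p53 4 to 6. It had 189.4, 192.1 and 195.3 CPM in E20 1 to 3, and 123.7, 118.3 and 120.3 CPM in E20 4 to 6. Levels in p53 were 663.3, 644.5 and 692.4 CPM and those in WT 642.1, 673.5 and 634.5 CPM. Every E20 library lay below every other library, and the p53 and WT libraries overlapped.

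SPARC binds collagen and calcium and takes part in collagen fibril assembly. Sparc (chr11:55394500-55423183, minus strand) had 639.6, 619.2 and 624.6 CPM in E20/p53 1 to 3, with 2732, 2854 and 2833 CPM in E20/p53 4 to 6. It had 2555, 2691 and 2647 CPM in E20 1 to 3, and 1427, 1342 and 1296 CPM in E20 4 to 6. Levels in p53 were 1439, 1405 and 1375 CPM and those in WT 222.1, 231.2 and 216.9 CPM. The p53 libraries overlapped E20 4 to 6, and the WT libraries were lowest of all.

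Periostin and TGFBI are fasciclin-domain proteins that bind collagen and integrins. Postn (chr3:54361109-54391037, plus strand) had 148.9, 174.4 and 149.9 CPM in E20/p53 1 to 3, with 1697, 1643 and 1708 CPM in E20/p53 4 to 6. E20 libraries 1 to 3 had 422.5, 447.9 and 432.8 CPM and E20 libraries 4 to 6 63.4, 58.9 and 52.5 CPM. The p53 libraries had 168.8, 189.02 and 176.97 CPM and overlapped E20/p53 1 to 3, and the WT libraries had 2.05, 3.51 and 2.47 CPM, from 33, 61 and 41 reads. The sets of 1 genotype differed 10.7-fold in E20/p53, with replicates 4 to 6 higher, and 7.46-fold in E20, with replicates 1 to 3 higher. Tgfbi (chr13:56609523-56639562, plus strand) stood at 12.1 to 16.2 CPM in E20/p53, 6.41 to 18 CPM in E20, 12.8 to 14.7 CPM in p53 and 27.3 to 29.6 CPM in WT. Its tongue groups overlapped each other and none reached the WT libraries.

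SRPX2 is a secreted sushi-repeat protein that binds the urokinase receptor, which is encoded by Plaur. Srpx2 (chrX:133908426-133932446, plus strand) had 16.5, 14.1 and 16.4 CPM in E20/p53 1 to 3, with 304.1, 297.3 and 297.3 CPM in E20/p53 4 to 6. E20 libraries 1 to 3 had 241.1, 269.1 and 254.3 CPM and E20 libraries 4 to 6 153.5, 151.9 and 150.9 CPM. In p53 it had 288.7, 290.6 and 268.8 CPM, while the WT libraries held 2, 1 and 1 reads. Lox (chr18:52516067-52529867, minus strand) had 302.4, 326.7 and 312.1 CPM in E20/p53 1 to 3, with 1060.1, 994.1 and 985.9 CPM in E20/p53 4 to 6. E20 libraries 1 to 3 had 714.98, 700.8 and 718.0 CPM and E20 libraries 4 to 6 570.7, 584.2 and 575.6 CPM. In p53 Lox had 820.8, 831.7 and 914.9 CPM, and in WT it had 104.5, 108.2 and 105.7 CPM. For both genes E20/p53 1 to 3 was the lowest tongue set and E20/p53 4 to 6 the highest, and WT lay below all tongue libraries.

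**Figure D2:**
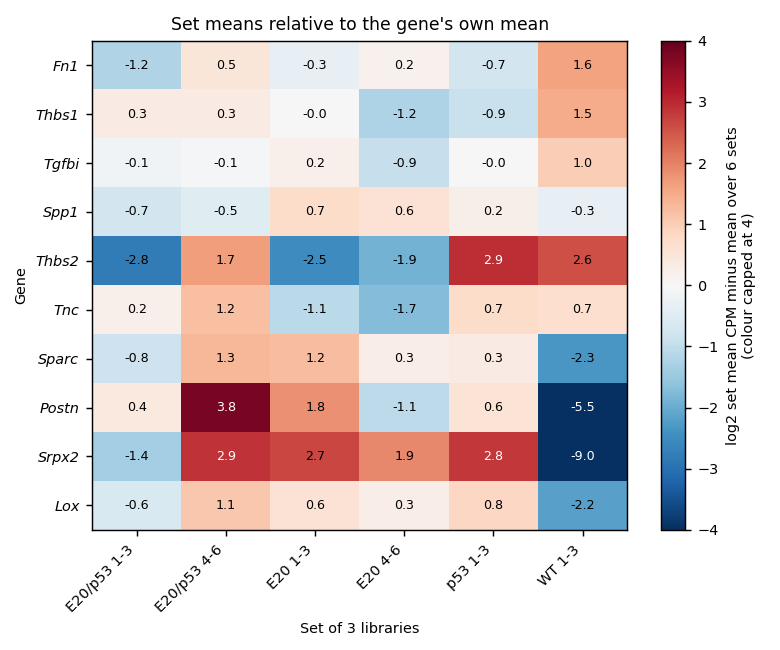
Mean level of each member in each of the 6 sets of 3 libraries, drawn relative to the gene's own mean over the sets on the log2 scale (colour capped at 4). Sparc, Postn, Srpx2 and Lox are lowest in WT and highest in E20/p53 4 to 6, whereas Fn1, Thbs1 and Tgfbi are highest in WT.

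Members could be compared with each other only per length of exon, for which GENCODE M21 coding transcripts were used. On the scale of CPM per kb, Spp1 was the highest member in each tongue set, at 1403 and 1651 in the E20/p53 sets, 3826 and 3461 in the E20 sets, replicates 1 to 3 first, and 2734 in p53. In WT, Fn1 stood at 2349 CPM per kb and Spp1 at 1856 CPM per kb. Tgfbi stayed between 2.76 and 10.3 CPM per kb in all sets. Together the 10 members took 1.02% to 1.06% of reads in E20/p53 1 to 3, 2.01% to 2.14% in E20/p53 4 to 6, 1.48% to 1.78% in E20, 1.30% to 1.32% in p53 and 3.16% to 3.41% in WT. The table also lists Apol7d on the strand opposite Fn1, at 0.621 CPM or less, and 8030451A03Rik on the strand opposite Tnc, at 4.66 CPM or less. The strand setting of the counting is not given in the sources used here, but both levels are small beside those of the members.

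Several members followed each other across libraries. Over the 18 libraries, which share 6 sets, Pearson's r of log2 values was 0.98 between Srpx2 and Lox, 0.96 between Sparc and Lox, 0.95 between Sparc and Srpx2 and 0.90 between Sparc and Postn. Thbs1 and Tgfbi had r = 0.82. Thbs1 and Srpx2 had r = -0.78, and Spp1 and Tnc had r = -0.74. These values describe likeness. Sparc, Postn, Srpx2 and Lox were lowest in WT, and Thbs1 and Tgfbi were highest there, so WT weighs on each r that involves them. Srpx2 had 1 or 2 reads in each WT library.

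Outside the members, the gene most like Tnc was Cdkn2a, which encodes the cell cycle inhibitors p16INK4a and p19ARF (r = 0.993 over 18 libraries). Its mean CPM was 142 and 375.8 in the E20/p53 sets, 26.7 and 16.9 in the E20 sets, replicates 1 to 3 first, 236.2 in p53 and 287.9 in WT. The gene most like Sparc was Galnt10, a glycosyltransferase gene (r = 0.993), followed within the nearest 3 by Tpm1, which encodes an actin-binding tropomyosin (r = 0.986). For Thbs1 it was Timp3, which encodes an inhibitor of metalloproteinases that is bound to the matrix (r = 0.980), for Spp1 Cd302, a lectin receptor gene (r = 0.980), for Fn1 Oxr1 (r = 0.950) and for Thbs2 the ubiquitin ligase scaffold Cul4b (r = 0.974). Arl2bp was nearest to Postn (r = 0.983), Klhl13 to Srpx2 (r = 0.994), Zfp583 to Lox (r = 0.993) and the kinase gene Ptk2b to Tgfbi (r = 0.958).

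By label, E20/p53 against E20 sets the mutant p53 allele on top of mutant PIK3CA in the tongue. K14-Cre is named for E20/p53 alone, and sex as read from Xist and Eif2s3y differed as well. The p53 allele cannot be told apart from these, and the values of the members in this comparison are a description. Spp1 was lower in E20/p53 (log2 -1.26, SE 0.10). Tnc was higher (log2 2.11, SE 0.21) and so was Thbs1 (2555 ± 79.3 CPM in E20/p53 and 1421 ± 627.1 CPM in E20, log2 0.97, SE 0.23). For these 3 genes both E20/p53 sets lay on the same side of every E20 library. By limma, 2 of the 10 members were called higher and 1 lower, where 23.0% and 19.6% of all 15224 tested genes were called (42.6% in either direction), and the median log2 change was 0.05 over the members and 0.05 over all tested genes. The other members were not called. For Fn1 (log2 -0.27, SE 0.33), Thbs2 (log2 1.64, SE 0.79), Sparc (log2 -0.51, SE 0.42), Srpx2 (log2 -1.52, SE 0.76) and Lox (log2 -0.18, SE 0.31), E20/p53 1 to 3 lay below every E20 library and E20/p53 4 to 6 above every one. For Postn (log2 1.69, SE 0.79), E20/p53 1 to 3 overlapped E20 and E20/p53 4 to 6 lay above every E20 library. For Tgfbi (log2 0.27, SE 0.22), both E20/p53 sets overlapped E20.

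The 6 E20/p53 libraries thus hold opposite patterns for those genes. With E20/p53 1 to 3 left out, 7 members were called higher and 1 lower than in E20, where 29.2% and 23.8% of all tested genes were called. With E20/p53 4 to 6 left out, 2 were called higher and 6 lower, where 33.6% and 31.4% of all tested genes were called. The fibroblast marker sum given above was lowest of all sets in E20/p53 1 to 3, and the keratinocyte marker sum was highest there. Single markers did not all rank as the sums did. In E20/p53, Krt8, Krt15 and Krt18 lay below every WT library, and Fbln1, Pdgfra and Dcn lay above every WT library. Col1a2, a type I collagen chain that Lox cross-links, stood at 1.58 CPM in E20/p53 1 to 3 but at 7391 CPM in E20/p53 4 to 6, beside 6365 CPM in E20 1 to 3 and 8634 CPM in E20 4 to 6. In bulk RNA, fewer cells of a type and less RNA per cell cannot be told apart, and the part of these markers in the members' levels was not tested. Spp1 and Thbs1, whose E20/p53 sets differed 1.18-fold and 1.01-fold, lay on 1 side of E20 in both sets. Averaging each set to 1 value ended every call of a member in all 6 comparisons, and in E20/p53 against E20 limma then called 0 genes, with 972 at an unadjusted p under 0.05.

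**Figure D3:**
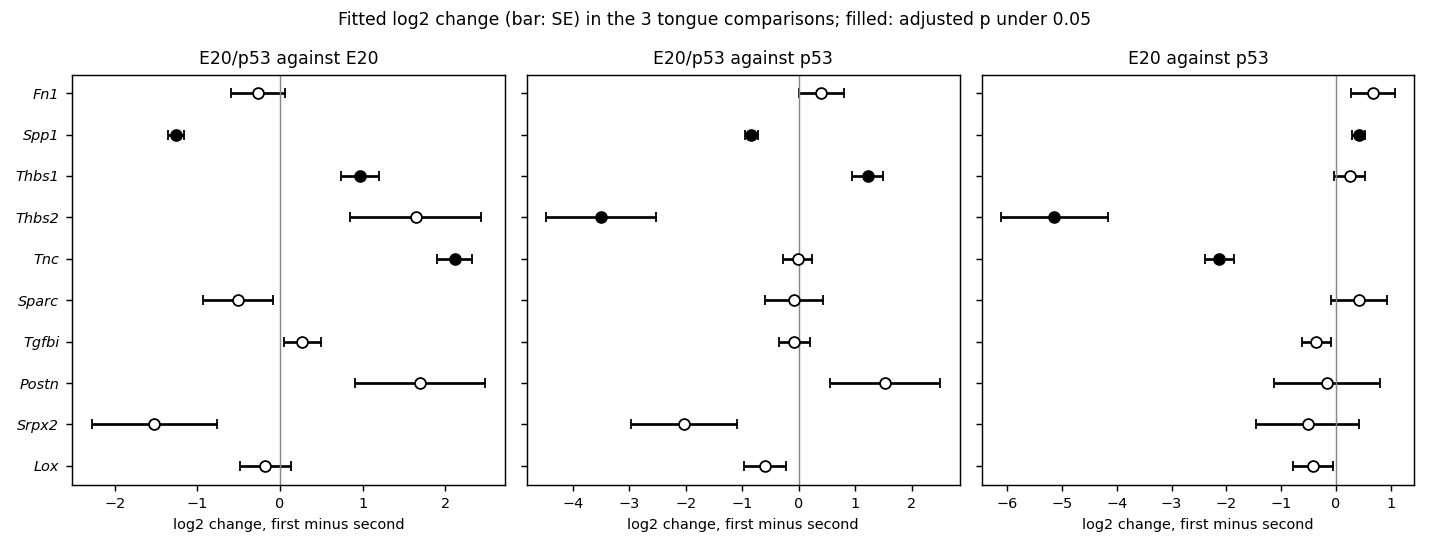
Log2 change of each member in the 3 comparisons among tongue groups, from 1 fit over 18 libraries; points are estimates, filled where called at an adjusted p under 0.05, and bars are ± 1 SE. In E20/p53 against E20, Spp1 lies at -1.26 and Tnc at 2.11, and the widest bars belong to genes whose E20/p53 sets differ most.

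By label, E20/p53 against p53 sets mutant PIK3CA on top of the mutant p53 allele, and it shares the E20/p53 libraries with the comparison above. K14-Cre is named for E20/p53 alone here too, so the PIK3CA allele cannot be told apart from it. Thbs1 was higher (log2 1.22, SE 0.28), and Spp1 (log2 -0.84, SE 0.12) and Thbs2 (log2 -3.50, SE 0.97) were lower in E20/p53, with both E20/p53 sets on the same side of every p53 library. Of the 10 members, 1 was called higher and 2 lower, where 12.8% and 13.0% of all tested genes were called (25.8% in either direction). The Thbs2 call was lost without p53 replicate 1, 2 or 3 (log2 -3.52, -3.53 and -3.47) and with the 2 groups fitted alone (log2 -3.50). Fn1, Tnc, Sparc, Srpx2 and Lox lay below every p53 library in E20/p53 1 to 3 and above every one in E20/p53 4 to 6. Of the members not called, the estimates ran from log2 -2.04 for Srpx2 (SE 0.94) to 1.53 for Postn (SE 0.97). The summed level of 7 skeletal muscle markers (Myod1, Myog, Mylpf, Ryr1, Chrna1, Des and Myf5) was 4.44 to 4.65 CPM in E20/p53 1 to 3, 716.9 to 762.5 CPM in E20/p53 4 to 6 and 1940.1 to 2059 CPM in p53. Of these markers 5 were called lower, and their part was not tested.

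By label, E20 against p53 compares 1 allele with the other. Sex as read from Xist and Eif2s3y differed between these groups, so allele and sex cannot be told apart. Spp1 was higher in E20 (6004 ± 358.2 CPM in E20 and 4506 ± 303.1 CPM in p53, log2 0.41, SE 0.12). Tnc (156.5 ± 39.3 CPM in E20 and 666.7 ± 24.1 CPM in p53, log2 -2.13, SE 0.26) and Thbs2 (14.0 ± 3.61 CPM in E20 and 484.4 ± 23.6 CPM in p53, log2 -5.14, SE 0.97) were lower. Of the 10 members, 1 was called higher and 2 lower, where 14.5% and 16.5% of all tested genes were called (31.0% in either direction). The 7 members not called had estimates between log2 -0.52 for Srpx2 (SE 0.94) and 0.67 for Fn1 (SE 0.40). The Spp1 call was lost without p53 replicate 1 (log2 0.38) or p53 replicate 3 (log2 0.39). The skeletal muscle marker sum was 709.9 to 833.9 CPM in E20 and 1940.1 to 2059 CPM in p53, 4 of 7 markers were called lower, and their part was not tested. In E20 the sum was mostly Des, with set means of 554.5 and 640.2 CPM in E20 and 743.0 CPM in p53. The muscle regulators of the list did not all go the same way. Myod1 averaged 0.121 ± 0.0654 CPM in E20 and 153.3 ± 3.84 CPM in p53, and Myog 0.192 ± 0.197 CPM in E20 and 119.5 ± 6.42 CPM in p53. Myf5 stood at 66.4 ± 22.4 CPM in E20 and 60.2 ± 6.97 CPM in p53 (log2 0.08, SE 2.24), overlapped and was not called.

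Against WT esophagus, Sparc, Postn and Lox were called higher in each tongue group. Their log2 changes were 2.57, 7.59 and 2.41 in E20/p53, 3.08, 5.90 and 2.59 in E20, and 2.65, 6.06 and 3.01 in p53. Fn1, Thbs1 and Tgfbi were called lower in each. Their log2 changes were -1.96, -1.16 and -1.08 in E20/p53, -1.69, -2.13 and -1.35 in E20, and -2.36, -2.38 and -0.99 in p53. Thbs2 was lower in E20/p53 (log2 -3.14) and in E20 (log2 -4.77), but the first call was lost with the 2 groups fitted alone. In p53, Thbs2 stood at log2 0.37 (SE 1.12) and was not called, although every p53 library lay above every WT library. Tnc was called lower in E20 (log2 -2.09), and it was not called in E20/p53 (log2 0.02) or in p53 (log2 0.04). Spp1 was called higher in E20 (log2 0.97) and p53 (log2 0.56) but not in E20/p53 (log2 -0.29). Srpx2, with 4 reads over the WT libraries, was called higher in each group, and is given by its levels above rather than by a fitted change. Counting all members, 4 were called higher and 4 lower in E20/p53, 5 and 5 in E20, and 5 and 3 in p53. The shares of all tested genes called higher and lower were 26.6% and 21.6%, 29.0% and 26.3%, and 29.3% and 24.8% in the same order, or 48.1%, 55.2% and 54.2% in either direction. These comparisons share the WT libraries. Besides genotype and organ, WT differed from each tongue group in Xist or Eif2s3y, and the part of this difference was not tested.

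Relatives, receptors and substrates of the members were taken as 11 lists of 60 genes in all, 54 of which were tested. In E20/p53 against E20, 12 of the 54 were called higher and 19 lower, where 23.0% and 19.6% of all tested genes were called, with a median log2 change of -0.28 over the lists. In E20/p53 against p53, 4 were called higher and 14 lower (median -0.61), where 12.8% and 13.0% of all tested genes were called. In E20 against p53, 6 were called higher and 15 lower (median -0.33), where 14.5% and 16.5% of all tested genes were called. Over all tested genes these medians were 0.05, 0.02 and -0.01. With set averages, which leave few values per group, none of these calls remained, as for the members. All adjusted p-values below are from limma with Benjamini-Hochberg adjustment over 15224 genes.

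Among enzymes and cross-linking partners of Lox, the lysyl oxidase Loxl3 fell to 26.3 ± 25.7 CPM in E20/p53, against 119.8 ± 22.2 CPM in E20 (log2 -3.28, SE 0.72, adjusted p = 0.00176). Its sets stood at 2.91 CPM in E20/p53 1 to 3 but 49.7 CPM in E20/p53 4 to 6. Loxl2 fell in E20 to 7.22 ± 3.17 CPM, against 206.3 ± 6.90 CPM in p53 (log2 -4.95, SE 0.86, adjusted p = 3.6e-04). Of 4 lysyl oxidase relatives, 2 were called lower in E20/p53 against E20, Loxl3 and Loxl1, where 19.6% of all tested genes were called lower. Loxl1 stood at 123.6 ± 123.7 CPM in E20/p53 and 286.4 ± 98.5 CPM in E20 (log2 -2.43, SE 0.80, adjusted p = 0.0225). The Loxl1 call was lost without E20/p53 replicate 1, 2 or 3 (log2 -1.99, -1.98 and -1.98), with the 2 groups fitted alone (log2 -2.43), without E20 1 to 3 (log2 -1.97) and without E20/p53 1 to 3 (log2 -0.20). Of the 7 genes for Lox activation and substrates, 1 was called higher and 3 lower, where 23.0% and 19.6% of all tested genes were called. Col1a2, whose set means are given above, was among the lower ones (log2 -6.07, SE 2.13, adjusted p = 0.0307). Its call was lost without E20/p53 replicate 1, 2 or 3 (log2 -4.86, -4.87 and -4.85), without E20 replicate 4 or 5 (log2 -6.01 and -6.03), without either E20 set (log2 -6.29 and -5.85), with the 2 groups fitted alone (log2 -6.07) and by voom (log2 -6.09). Without E20/p53 1 to 3 its estimate was log2 -0.0, also not called. Type III collagen (Col3a1) was also lower, with 26.8 CPM in E20/p53 1 to 3 but 3733 CPM in E20/p53 4 to 6, beside 5916 CPM in E20 1 to 3 and 4835 CPM in E20 4 to 6 (log2 -4.08, SE 1.25, adjusted p = 0.0155). Col3a1 no longer passed without E20 1 to 3 (log2 -3.93) or E20 4 to 6 (log2 -4.22). Bmp1, the protease that releases active lysyl oxidase, had 151.02 and 521.1 CPM in the E20/p53 sets and 355.9 and 218.02 CPM in the E20 sets, replicates 1 to 3 first.

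Fibulins bind elastic fibres and fibronectin. Of the 6 tested, 1 was called higher and 3 lower in E20/p53 against E20, where 23.0% and 19.6% of all tested genes were called. Fibulin 2 (Fbln2), which binds fibronectin, rose to 844.9 ± 123.2 CPM in E20/p53, against 422.2 ± 118.9 CPM in E20 (log2 1.04, SE 0.15, adjusted p = 5.8e-05). It fell in E20, at 422.2 ± 118.9 CPM, against 943.7 ± 27.4 CPM in p53 (log2 -1.21, SE 0.19, adjusted p = 1.5e-04). Fibulin 3 (Efemp1) fell to 19.0 ± 14.4 CPM in E20/p53, against 192.01 ± 13.1 CPM in E20 (log2 -3.79, SE 0.43, adjusted p = 3.7e-06) and 136.8 ± 8.44 CPM in p53 (log2 -3.30, SE 0.53, adjusted p = 2.7e-04). In each of these comparisons both sets of a genotype lay on 1 side of the other group.

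Tenascin relatives were scarce beside Tnc. Tenascin X (Tnxb) rose to 4.52 ± 2.58 CPM in E20/p53, against 0.863 ± 0.663 CPM in E20 (log2 2.46, SE 0.50, adjusted p = 9.4e-04). Tenascin R (Tnr), chiefly a protein of the nervous system, fell in E20/p53 (log2 -3.80, SE 0.44, adjusted p = 4.8e-06) and was at most 2.4 CPM as a set mean. Stabilin 1 (Stab1), a scavenger receptor with fasciclin domains that takes up SPARC, rose to 16.4 ± 2.97 CPM in E20/p53, against 3.21 ± 2.77 CPM in E20 (log2 2.94, SE 0.53, adjusted p = 3.4e-04). Srpx, the paralog of Srpx2, was at 0.0588 ± 0.0531 CPM in E20/p53 and 1.31 ± 0.805 CPM in E20 and fell (log2 -3.43, SE 0.42, adjusted p = 8.6e-06). Of the bone and tooth relatives of osteopontin, Dmp1 was tested and its set means did not exceed 4.97 CPM. CCN proteins are matricellular proteins that bind integrins, and the 3 with the highest levels did not pass in E20/p53 against E20: Ccn1 (log2 -0.11, SE 0.43), Ccn4 (log2 0.14, SE 0.39) and Ccn5 (log2 0.61, SE 0.57).

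Among 10 integrin subunits that bind fibronectin or RGD sequences, 1 was called higher and 4 lower in E20/p53 against E20. Of all tested genes, 23.0% were called higher and 19.6% lower there (42.6% in either direction). The common beta subunit Itgb1 was at 1096 ± 75.5 CPM in E20/p53 and 1084 ± 112.7 CPM in E20 (log2 0.02, SE 0.08, adjusted p = 0.852) and did not pass. The osteopontin-binding subunit Itgav did not pass either (log2 0.16, SE 0.09, adjusted p = 0.145), nor did the fibronectin receptor subunit Itga5 (log2 -0.41, SE 0.39, adjusted p = 0.409). Itga5 means were 101.1 CPM in E20/p53 1 to 3 but 458.6 CPM in E20/p53 4 to 6, beside 272.8 and 301.3 CPM in the E20 sets, which lay between them as they did for Fn1. Of 7 other receptors, 2 were called higher and 4 lower, beside the same shares of all tested genes. The 2 higher were Cd44 and Cd36, and Cd36 was near 0, at 0.158 ± 0.0474 CPM in E20/p53 and 0.0111 ± 0.0272 CPM in E20. Lrp1, the endocytic receptor that clears thrombospondins, fell to 621.0 ± 270.6 CPM in E20/p53, against 1549 ± 252.0 CPM in E20 (log2 -1.42, SE 0.23, adjusted p = 1.4e-04). Cd44, a receptor of osteopontin, rose (log2 0.43, SE 0.12, adjusted p = 0.0096), with set means of 598.8 and 398.6 CPM in E20/p53 and 400.4 and 326.8 CPM in E20, replicates 1 to 3 first. That call was lost without E20 4 to 6 (log2 0.29) and without E20/p53 1 to 3 (log2 0.14).

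**Figure D4:**
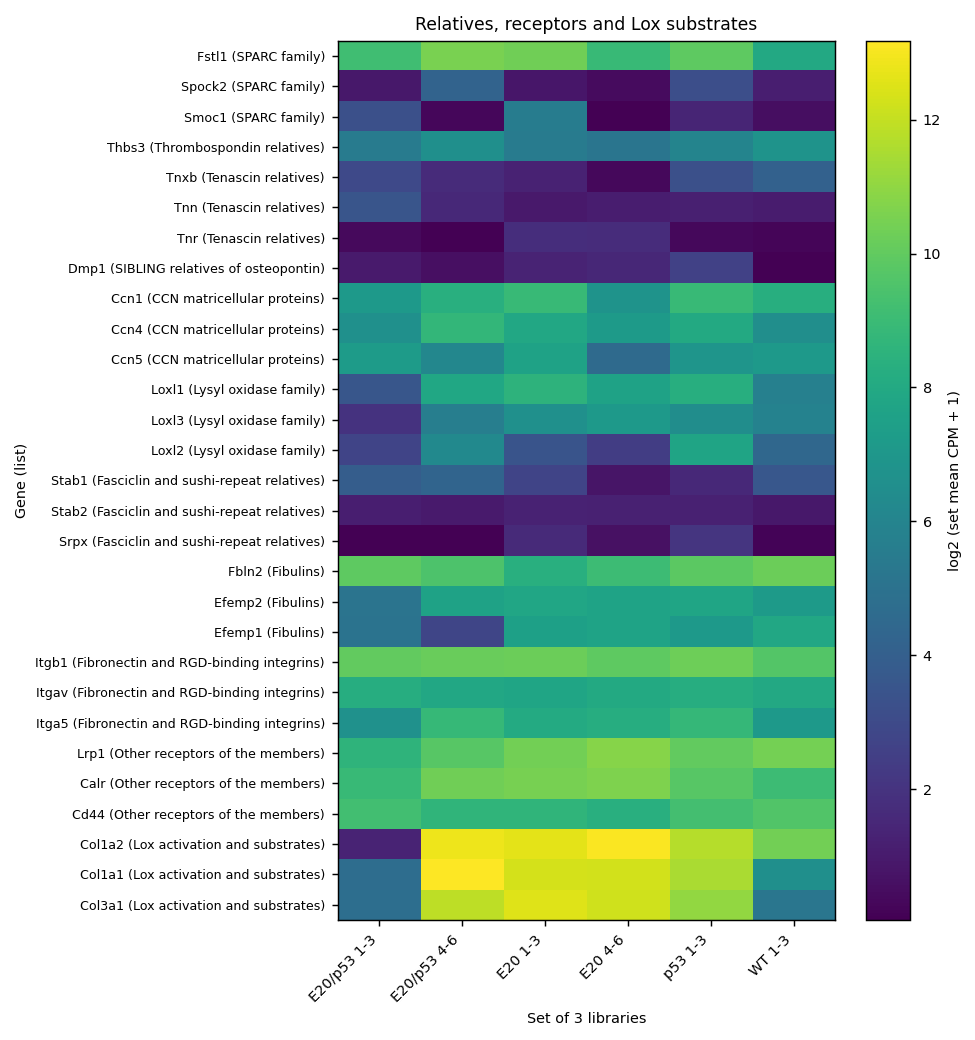
Level of 29 named relatives, receptors and Lox partners in each of the 6 sets of 3 libraries, coloured by log2 of the set mean CPM plus 1. Itgb1 keeps 806.4 to 1253 CPM in all sets, while Col1a2 has 1.58 CPM in E20/p53 1 to 3 but 8634 CPM in E20 4 to 6.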

How the data were processed

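RNA from 18 libraries was sequenced after preparation with a TruSeq Stranded mRNA LT kit, per the labels' protocols. Per the submitters' processing notes, bcl2fastq 1.8.4, Trimmomatic and featureCounts were used with the build mm10. For the aligner, annotation and scaling method, the sources used here give no name. The authors deposited log2 values, and each equals log2 of (reads + 1) minus log2 of a library total that was scaled by 0.939 to 1.12. Whole reads came back from 100% of values, within 0.001.

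From these, CPM was computed as reads over the scaled total, per 1000000. Limma 3.58.1 in R 4.3.3 was run on the deposited log2 values, with a mean-variance trend, 1 mean per group over 18 libraries, and Benjamini-Hochberg adjustment over 15224 genes, called at an adjusted p under 0.05. Tested genes had 0.625 CPM (10 reads at the median total) in at least 3 libraries and at least 15 reads in all, and all 10 members passed. The procedure was tested on simulated data of independent libraries without sets. That test could not show how calls hold where libraries share a set. The main fit took the deposited log2 values. No count model was fitted, though whole reads could be recovered, and voom on these reads was an alternative.

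The members and gene lists were chosen with earlier results of these data known. Genes named besides members were the 3 tested genes of each list with the highest mean log2 value, and the 3 genes with the highest Pearson's r to each member. Bmp1, Cd36 and single marker genes were named after their values were seen. Promoters came from RefSeq on GRCm38.p6, gene positions and exon lengths from GENCODE M21. Alternatives were other scalings, pseudocounts, filters and limma settings, a replicate block, set averages, and libraries or sets left out.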

Additional observations from a re-analysis of the deposited data

How the results depend on the processing

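The calls rest on treating the 3 libraries of a set as separate samples. Set averages leave 1 value each for p53 and WT and 2 each for E20 and E20/p53. A fit to so few values could call few genes in any case. With 6 set averages, 0 members and 0 genes of the 11 lists were called by limma in each of the 6 comparisons. All genes called then numbered 0, 0, 0, 1, 8 and 1 for E20/p53 against E20, E20/p53 against p53, E20 against p53, E20/p53 against WT, E20 against WT and p53 against WT, with 972, 421, 625, 1570, 2069 and 1624 genes and 1, 0, 2, 3, 6 and 4 members at an unadjusted p under 0.05. With all 18 libraries the members called numbered 3, 3, 3, 8, 10 and 8 and the genes called 6488, 3931, 4724, 7327, 8408 and 8246. Without single libraries, members called ran from 3 to 4, 2 to 4, 2 to 3, 8 to 9, 10 to 10 and 8 to 8 in that order, and genes called from 5846 to 6831, 2334 to 4695, 3367 to 4773, 5921 to 7608, 7144 to 8256 and 6972 to 7220.

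In E20/p53 against E20, 5 members and 6838 genes were called without E20 1 to 3, 8 and 8067 without E20/p53 1 to 3, and 8 and 9895 without E20/p53 4 to 6. For E20/p53 against p53, 6 members and 5212 genes were called without E20/p53 1 to 3, and 8, with 9725 genes and 36 list genes, without E20/p53 4 to 6. In E20 against p53, 5 members were called without E20 1 to 3, with 6198 genes, and also with the 2 groups fitted alone, with 6446 genes and 35 list genes. With 2 groups alone, 10 of 54 list genes were called in E20/p53 against p53, beside 2857 of all 15224 tested genes. In p53 against WT, 48 list genes were then called, beside 12285 of all tested genes. In E20/p53 against WT, 36 list genes were called without E20/p53 1 to 3, beside 10290 of all tested genes. Voom on the recovered reads ended the call of Srpx2 against WT in each tongue group. Scaling by the sum of reads moved the split of calls to 4507 higher and 2466 lower in E20/p53 against E20 (3499 and 2989 as deposited), with the median of all genes shifted by 0.11, and to 3561 and 4953 in E20 against WT (4410 and 3998 as deposited), with a shift of -0.17. No alternative turned the direction of a change of a named gene that was called with all 18 libraries. Changes not called there were left out of that check. In E20/p53 against E20, 7 members were called higher without E20/p53 1 to 3, and 6 lower without E20/p53 4 to 6.

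Same-numbered libraries did not deviate together from their group means (r of -0.0549 to 0.0749), and the main fit did not pair them. In E20 and E20/p53 these deviations include the difference between the sets, so this r could not show pairing inside a set. The replicate block called 6407 genes and 28 list genes in E20/p53 against p53, and 4 members there and in E20/p53 against E20. The cause of these movements was not tested. Counting error is small for most members at this depth, but limits Srpx2 and Postn in WT.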
